A study of Mus musculus with 12 samples.

Results

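Trpv6, S100g, Atp2b1, Slc34a2, Vdr and Cyp24a1 carry calcium and phosphate across the gut epithelium or set that transport through vitamin D. These 6 genes were taken by name, through their Ensembl identifiers, from the 54838 gene rows of a read count table of mouse ileum. Of the 6 genes, 4 (S100g, Atp2b1, Slc34a2 and Vdr) passed the filter on low counts and were tested among 15938 genes, while Trpv6 and Cyp24a1 had too few reads for a test.

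Dietary calcium crosses the enterocyte through the channel Trpv6 at the brush border, is carried through the cytosol by calbindin-D9k, the product of S100g, and leaves at the basolateral side through the calcium pump Pmca1, the product of Atp2b1. Phosphate enters together with sodium through Npt2b, the product of Slc34a2, which in mice is most abundant in the ileum. The vitamin D receptor Vdr is the transcription factor that answers active vitamin D, and Cyp24a1 is its best known target gene and the enzyme that degrades active vitamin D. Glucocorticoids are known to lower intestinal calcium and phosphate absorption.

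The libraries were made from whole ileum of 12 C57BL/6J mice, female and adult per the study's methods, with 3 mice in each of 4 groups. For 7 days the mice drank normal water or water with 25 mM ZnSO4. They then received 1 injection of PBS or of 200 µg dexamethasone (Dex), a synthetic glucocorticoid, in PBS, and were sampled 2 h later. The groups are called water + PBS (the control), water + Dex, ZnSO4 + PBS and ZnSO4 + Dex, no group carried a genetic change, and the design asks how ZnSO4 and Dex act alone and together.

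The libraries held 10760132 to 11827487 counted reads. Values below are counts normalised to the same effective library size, log2 fold changes (LFC) with their standard error (SE), or, wherever genes are compared with each other, RPKM, read counts scaled for exon length and library size. A gene was called at an adjusted p under 0.05 in edgeR's quasi-likelihood test with Benjamini-Hochberg adjustment over all 15938 genes. All 6 enterocyte markers and all 4 markers of distal enterocytes were detected in every library, so the libraries carried the defining markers of the labelled tissue. One library stood apart, ZnSO4 + Dex replicate 2, in which the summed enterocyte markers reached 7890 CPM (counts scaled to library size) against 14200 to 19600 in the other 11 libraries, and those of proximal enterocytes 136 CPM against 252 to 571. B cell markers ranged from 10.6 to 537 CPM between mice, with ranges that overlapped between all groups, and none of the 6 was called in any comparison. The treatments showed in Mt1, a metallothionein induced by zinc (LFC 4.79 with ZnSO4 after PBS), and in Fkbp5, a glucocorticoid target (LFC 3.34 with Dex on water).

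Promoter sequence is shown for Slc34a2 and S100g, because these are the genes of the 6 called with Dex. Slc34a2 was called downward on water and on ZnSO4, and S100g upward on ZnSO4 only. Each run starts 250 bases before the RefSeq start site and ends 30 bases after it, and is written 5′ to 3′ on the gene's own strand. Capitals mark matches to the motif letters searched, and the Slc34a2 window held none.
Slc34a2, chr5:53049103-53049382, plus strand, GRCm38.p6: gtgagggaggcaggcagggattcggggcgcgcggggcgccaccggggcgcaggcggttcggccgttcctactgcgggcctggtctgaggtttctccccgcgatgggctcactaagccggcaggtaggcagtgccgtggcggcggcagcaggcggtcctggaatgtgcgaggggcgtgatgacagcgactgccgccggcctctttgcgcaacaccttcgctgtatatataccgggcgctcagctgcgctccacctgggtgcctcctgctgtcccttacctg
S100g, chrX:162964570-162964849, minus strand, GRCm38.p6: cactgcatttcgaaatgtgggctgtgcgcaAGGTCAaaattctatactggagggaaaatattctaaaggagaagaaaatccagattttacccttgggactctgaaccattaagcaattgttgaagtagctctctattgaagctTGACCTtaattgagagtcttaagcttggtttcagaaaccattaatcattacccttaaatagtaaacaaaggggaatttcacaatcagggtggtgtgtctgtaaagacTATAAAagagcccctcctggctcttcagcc

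The search covered the whole 300-base window, which runs 50 bases past the start. It read both strands for AGAACA (the half-site of the glucocorticoid receptor), its palindrome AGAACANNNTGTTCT, AGGTCA (a nuclear receptor half-site) and the direct repeat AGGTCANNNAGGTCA known from vitamin D receptor sites, and the gene's own strand for TATAAA. The half-sites are part of the longer motifs, so their matches overlap by construction. In S100g, AGGTCA matched at -220 and, on the opposite strand, at -107, and TATAAA at position 1, counted from the RefSeq start. In Trpv6, AGAACA matched at -108 and AGGTCA at -165 and, on the opposite strand, at -191, whereas the windows of Vdr and Atp2b1 held no match. Of all 32851 RefSeq windows, 19% held AGAACA, 0.00913% its palindrome, 16.3% AGGTCA, 0.00609% the direct repeat and 8.32% TATAAA, so the short matches are common. GC content was 68.7% for Slc34a2 and 41% for S100g, beside a median of 52.7% for all windows. There was no window for Cyp24a1.

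Per length, the 6 genes fell into a measured and a nearly silent group. Averaged over the 4 groups, Slc34a2 was the most abundant at 120.8 RPKM, before Vdr at 72.13, S100g at 39.85 and Atp2b1 at 24.88 RPKM. This order did not hold within the groups. After PBS, Slc34a2 led (172.7 RPKM on water, 207.1 on ZnSO4), and S100g (17.77 and 22.78) lay below Atp2b1 (25.35 and 29.76). After Dex on water, the mean of Vdr at 67.54 ± 2.624 RPKM lay above that of Slc34a2 at 62.22 ± 14.81 (SD, n = 3). Within ZnSO4 + Dex, the mean of S100g led at 79.6 ± 34.7 RPKM, before Vdr at 74.3 ± 5.14 and Slc34a2 at 41.04 ± 21.72. The gap of Vdr to Slc34a2 on water was smaller than the SD of Slc34a2. Likewise, the gap of S100g to Vdr in ZnSO4 + Dex was smaller than the SD of S100g. Trpv6 at 0.01125 RPKM and Cyp24a1 at 0.004103 RPKM lay below the level of 3 reads in a library, 0.0613 to 0.0747 RPKM for Trpv6 and 0.0678 to 0.0826 RPKM for Cyp24a1. The entry channel of the calcium route was thus barely detected in ileum that did hold reads of the calcium carrier and the calcium pump.

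**Figure D1:**
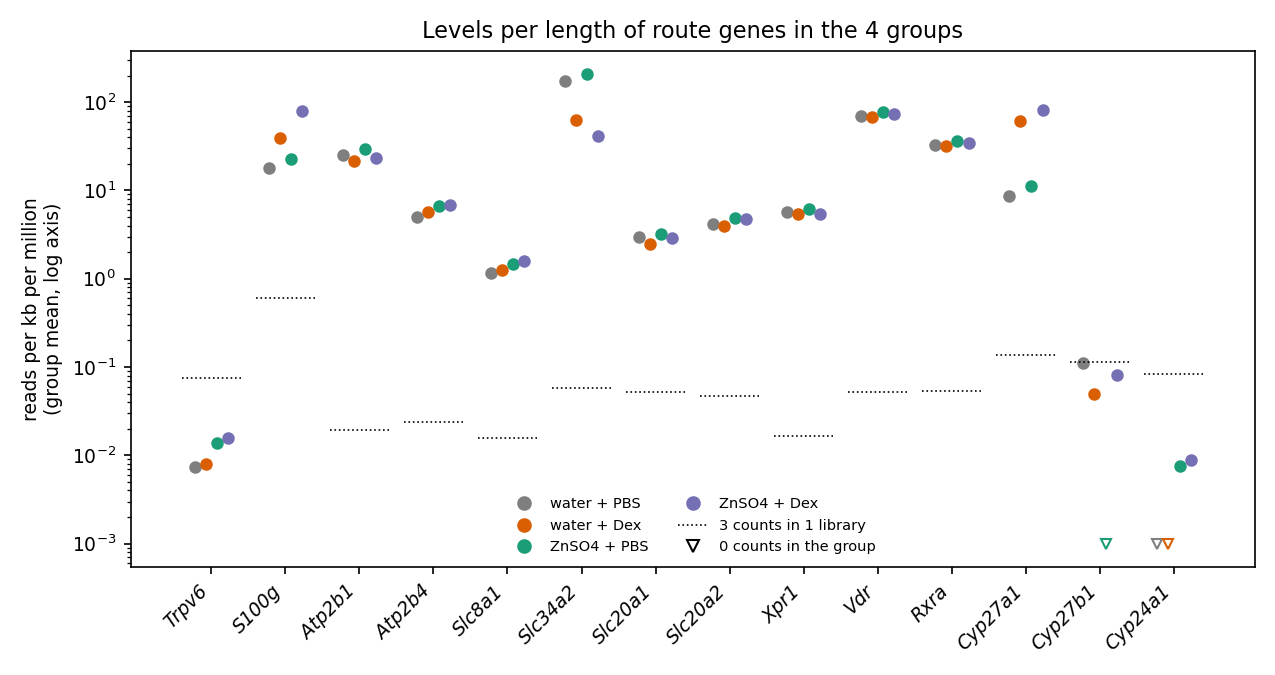
Group means of RPKM on a log axis for 14 genes of the calcium, phosphate and vitamin D routes, with a dotted line at the level of 3 reads in 1 library and open triangles for groups without a read. Trpv6, Cyp24a1 and Cyp27b1 lie below their dotted lines in all 4 groups. Among the genes above their lines, the points of Slc34a2, S100g and Cyp27a1 are the most spread between groups.

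Trpv6 (chr6:41620624-41636405, minus strand, GRCm38), the calcium channel of the brush border, had 1 read in 6 libraries and 0 in the other 6. These were water + PBS replicate 2, water + Dex replicate 3, ZnSO4 + PBS replicates 1 and 2, and ZnSO4 + Dex replicates 1 and 3. Every group thus held at least 1 library with a read, and a difference between groups was not detectable at this depth. Its close relative Trpv5, the renal calcium channel, had 0 reads in all 12 libraries.

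S100g (chrX:162961992-162964599, minus strand, GRCm38), calbindin-D9k, was higher after Dex and highest where ZnSO4 and Dex came together. The normalised counts were 66.15, 102.3 and 122.6 in water + PBS, and 182.8, 171.7 and 288.5 in water + Dex. They were 157.5, 84.2 and 131.5 in ZnSO4 + PBS, and 630.4, 421.8 and 252 in ZnSO4 + Dex. Both Dex groups lay wholly above both PBS groups, whereas the PBS groups overlapped, as did the Dex groups. In mice on ZnSO4, S100g rose 3.49-fold with Dex (LFC 1.80, SE 0.355, adjusted p = 0.0053), from 124.4 ± 37.15 to 434.7 ± 189.5 normalised counts (SD, n = 3 mice each; edgeR). In mice on water, the LFC with Dex was 1.14 (SE 0.359) from 97.02 ± 28.59 to 214.4 ± 64.46, which missed the threshold (edgeR adjusted p = 0.071) although the groups did not overlap. That call depended on the tool and on single libraries, with adjusted p = 0.011 in DESeq2, 0.04 in edgeR without ZnSO4 + Dex replicate 3 and 0.25 without water + Dex replicate 3. A change in the number of expressing cells and a change in RNA per cell cannot be told apart in whole tissue.

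ZnSO4 alone left S100g within the spread of the mice (LFC 0.36, SE 0.361, edgeR adjusted p = 0.64). Among Dex-treated mice, ZnSO4 went with an LFC of 1.02 (SE 0.345, edgeR adjusted p = 0.13), and DESeq2 gave an adjusted p of 0.041. Against the control, S100g was 4.48-fold higher in ZnSO4 + Dex (LFC 2.16, SE 0.362, edgeR adjusted p = 0.0013). In descending order the groups were ZnSO4 + Dex, water + Dex, ZnSO4 + PBS and water + PBS, and no pair of neighbours in that order passed the test. The middle pair, water + Dex and ZnSO4 + PBS, did not overlap but had an adjusted p of 0.16 by edgeR.

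Atp2b1 (chr10:98914406-99026143, plus strand, GRCm38), the basolateral calcium pump, passed the test in none of the comparisons by edgeR. The normalised counts were 4537, 4050 and 4581 in water + PBS and 3800, 3863 and 3462 in water + Dex. They were 5449, 5146 and 4866 in ZnSO4 + PBS and 3906, 2697 and 5346 in ZnSO4 + Dex. The 3 mice given ZnSO4 alone lay above the control mice, and the 3 given Dex alone below them, with LFC of 0.23 (SE 0.185, adjusted p = 0.54) and -0.24 (SE 0.185, adjusted p = 0.49). In mice on ZnSO4, the LFC with Dex was -0.37 (SE 0.185, adjusted p = 0.23), and ZnSO4 + Dex covered the widest range of the 4 groups. Its lowest mouse was replicate 2, the library low in enterocyte markers, and its highest was replicate 3. Without replicate 3 the LFC was -0.64 (edgeR adjusted p = 0.014), and without replicate 2 it was -0.16 (adjusted p = 0.51), so that 1 library decided the call. Of the per-length sum of the 4 plasma membrane calcium pumps Atp2b1 to Atp2b4, Atp2b1 made up 83.2 ± 1.54% in water + PBS, 78.5 ± 0.842% in water + Dex, 81.1 ± 5.63% in ZnSO4 + PBS and 75.2 ± 9.89% in ZnSO4 + Dex (SD, n = 3). Atp2b1 was thus the main pump transcript in every group, ahead of Atp2b4, which averaged 6.034 RPKM.

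Slc34a2 (chr5:53038081-53071664, plus strand, GRCm38), the sodium-phosphate cotransporter Npt2b, was lower after Dex whether or not the mice had drunk ZnSO4. The normalised counts were 9600, 10970 and 8986 in water + PBS, and 2920, 4509 and 3217 in water + Dex. They were 12500, 11090 and 11840 in ZnSO4 + PBS, and 2195, 1182 and 3646 in ZnSO4 + Dex. All 6 Dex-treated mice lay below all 6 PBS-injected mice. In mice on water, Slc34a2 fell 2.78-fold with Dex (LFC -1.47, SE 0.312, edgeR adjusted p = 0.011), from 9852 ± 1016 to 3549 ± 844.9 (SD, n = 3). In mice on ZnSO4, it fell 5.05-fold (LFC -2.33, SE 0.321, edgeR adjusted p = 0.00051), from 11810 ± 707.3 to 2341 ± 1239. By LFC it ranked 158th from the bottom of the 15938 genes on water and 63rd from the bottom on ZnSO4.

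The fall on water lost its call without water + Dex replicate 1 (LFC -1.35, edgeR adjusted p = 0.053) or replicate 3 (LFC -1.41, adjusted p = 0.057). Without ZnSO4 + Dex replicate 2, the library low in enterocyte markers and the lowest for Slc34a2, the fall on ZnSO4 was -2.02 (edgeR adjusted p = 0.00023). The summed enterocyte markers on water were 14200 to 15500 CPM with PBS and 17000 to 19600 CPM with Dex. On ZnSO4 they were 14800 to 17000 CPM with PBS and 15300, 7890 and 17400 CPM with Dex, and none of the 6 enterocyte markers was called in either Dex comparison. With the enterocyte markers as a covariate, added after seeing the data, the LFC of Slc34a2 with Dex was -1.75 on water and -2.02 on ZnSO4. The part of enterocyte content in the fall of Slc34a2 was not tested.

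ZnSO4 alone gave Slc34a2 an LFC of 0.26 (SE 0.305, edgeR adjusted p = 0.69), with all 3 mice above the 3 controls. Among Dex-treated mice the LFC with ZnSO4 was -0.60 (SE 0.308, edgeR adjusted p = 0.32) and the groups overlapped. Without ZnSO4 + Dex replicate 3, the highest mouse of its group, it was -1.07 and passed the test (edgeR adjusted p = 0.041), and without replicate 2 it was -0.28 (adjusted p = 0.59). Against the control, Slc34a2 was 4.21-fold lower in ZnSO4 + Dex (LFC -2.07, SE 0.318, edgeR adjusted p = 0.00076). The order of the groups was ZnSO4 + PBS, water + PBS, water + Dex and ZnSO4 + Dex, and of the neighbours in that order only water + PBS and water + Dex differed by the test.

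Among the sodium-phosphate transporters, Slc34a2 made up 95.8 ± 0.506% of the per-length sum of Slc34a1, Slc34a2, Slc34a3, Slc20a1 and Slc20a2 in water + PBS and 96.1 ± 0.497% in ZnSO4 + PBS. With Dex its share was 89.7 ± 2.23% on water and 81.4 ± 8.26% on ZnSO4 (SD, n = 3). Even at its lowest, Slc34a2 at 41.04 RPKM in ZnSO4 + Dex was well above the ubiquitous phosphate transporters Slc20a1 at 2.865 RPKM and Slc20a2 at 4.716 RPKM in the same group. Neither of these was called in any comparison.

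Vdr (chr15:97854425-97910630, minus strand, GRCm38), the vitamin D receptor, was the steadiest of the 4 tested genes. The normalised counts were 4896, 4147 and 4265 in water + PBS, and 4184, 4520 and 4321 in water + Dex. They were 4718, 4966 and 5295 in ZnSO4 + PBS, and 4952, 4395 and 4982 in ZnSO4 + Dex. The 4 groups overlapped except for water + Dex and ZnSO4 + PBS. The LFC with Dex was -0.03 (SE 0.0894, edgeR adjusted p = 0.88) on water and -0.06 (SE 0.0893, adjusted p = 0.71) on ZnSO4. With ZnSO4 it was 0.17 (SE 0.0894, edgeR adjusted p = 0.32) after PBS and 0.14 (SE 0.0894, adjusted p = 0.45) after Dex. The SE of Vdr was the smallest of the 4 genes, so the data bound its change more closely than theirs.

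Cyp24a1 (chr2:170482708-170497145, minus strand, GRCm38), the enzyme that inactivates vitamin D, had 0 reads in 10 libraries and 1 read each in ZnSO4 + PBS replicate 3 and ZnSO4 + Dex replicate 3. Of its exonic bases, 2.33% overlap Pfdn4 on the other strand. Cyp27b1, which makes active vitamin D, had 0 to 4 reads in a library. The transcript of the receptor was thus plentiful while those of both enzymes of active vitamin D stood at or near 0, and nothing can be said here about how ZnSO4 or Dex affected these enzymes.

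**Figure D2:**
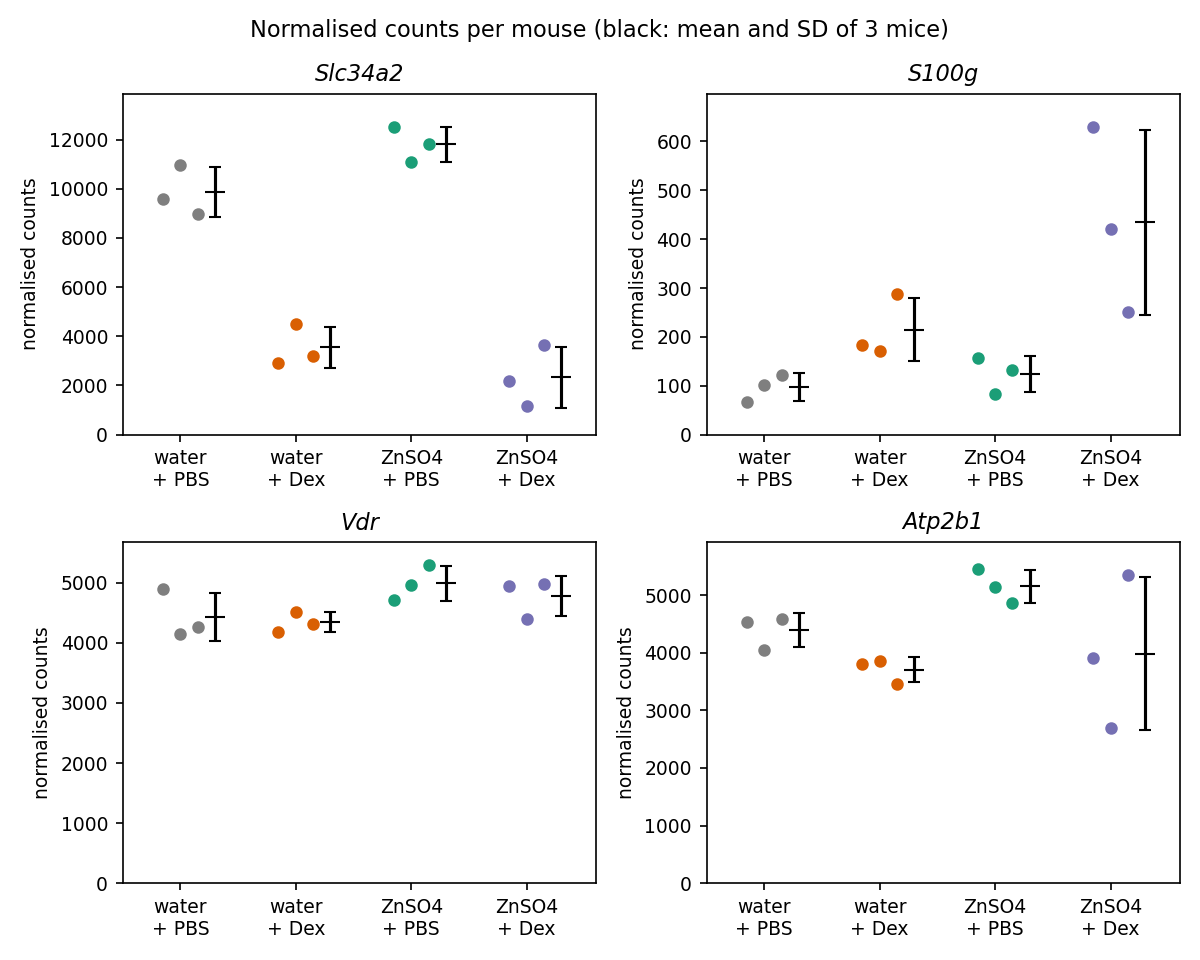
Normalised counts of the 4 tested genes in each of the 12 mice (coloured points), with the mean and SD of 3 mice in black, on axes that start at 0. All 6 Dex-treated mice lie below the PBS-injected mice for Slc34a2 and above them for S100g, whereas Vdr and Atp2b1 show no such split.

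Counted over the tested genes, Dex in mice on water called 1 of 4, Slc34a2, downward, where 9.93% of all genes were called. Dex in mice on ZnSO4 called 2 of 4, S100g upward and Slc34a2 downward, beside 13.7% of all genes. ZnSO4 after PBS called 0 of 4 by edgeR, with 0 at an unadjusted p under 0.05 and 0 by DESeq2, beside 4.66% of all genes. ZnSO4 after Dex called 0 of 4 by edgeR, with 1 (S100g) at an unadjusted p under 0.05 and 1 by DESeq2, beside 4.37% of all genes. ZnSO4 + Dex against the control called 2 of 4, again S100g and Slc34a2, beside 23.3% of all genes. Dex alone against ZnSO4 alone called 1 of 4, with Slc34a2 3.33-fold lower after Dex (LFC -1.73, edgeR adjusted p = 0.0027), beside 17.6% of all genes. At an unadjusted p under 0.05 by edgeR, this comparison held 4 of 4. Dex on water, Dex on ZnSO4 and ZnSO4 + Dex against the control held 2 each. Without single libraries, Atp2b1 in Dex alone against ZnSO4 alone had an LFC of -0.53 to -0.43 (edgeR adjusted p = 0.012 to 0.25). Groups that did not overlap were found for 3 of the 4 genes with Dex on water (29.7% of all genes), 2 with Dex on ZnSO4 (29.1%), 2 with ZnSO4 after PBS (25.3%), 0 with ZnSO4 after Dex (25.9%), 2 in ZnSO4 + Dex against the control (36.9%) and 4 between Dex alone and ZnSO4 alone (38.3%). Many of these comparisons share groups, but Dex on water and Dex on ZnSO4 share no mouse, nor do ZnSO4 after PBS and ZnSO4 after Dex, nor the last 2 comparisons. The labels do not say whether mice shared a cage or a day, so the p-values measure the spread between these 12 samples.

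Whether Dex acted differently on ZnSO4 than on water was tested as an interaction. For Slc34a2 the fall with Dex was larger on ZnSO4 by 0.86 on the log2 scale (SE 0.434, unadjusted p = 0.071, edgeR adjusted p = 0.95). For S100g the rise was larger on ZnSO4 by 0.66 (SE 0.498, unadjusted p = 0.21, edgeR adjusted p = 0.96). For Vdr and Atp2b1 the differences were -0.03 (SE 0.126) and -0.13 (SE 0.261). None of the 4 genes passed by edgeR, at an unadjusted p under 0.05 or by DESeq2, and of all 15938 genes 0 were called by either tool, while 794 had an unadjusted p under 0.05 by edgeR. The larger LFC of Slc34a2 and S100g on ZnSO4 were therefore not shown to differ from those on water.

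**Figure D3:**
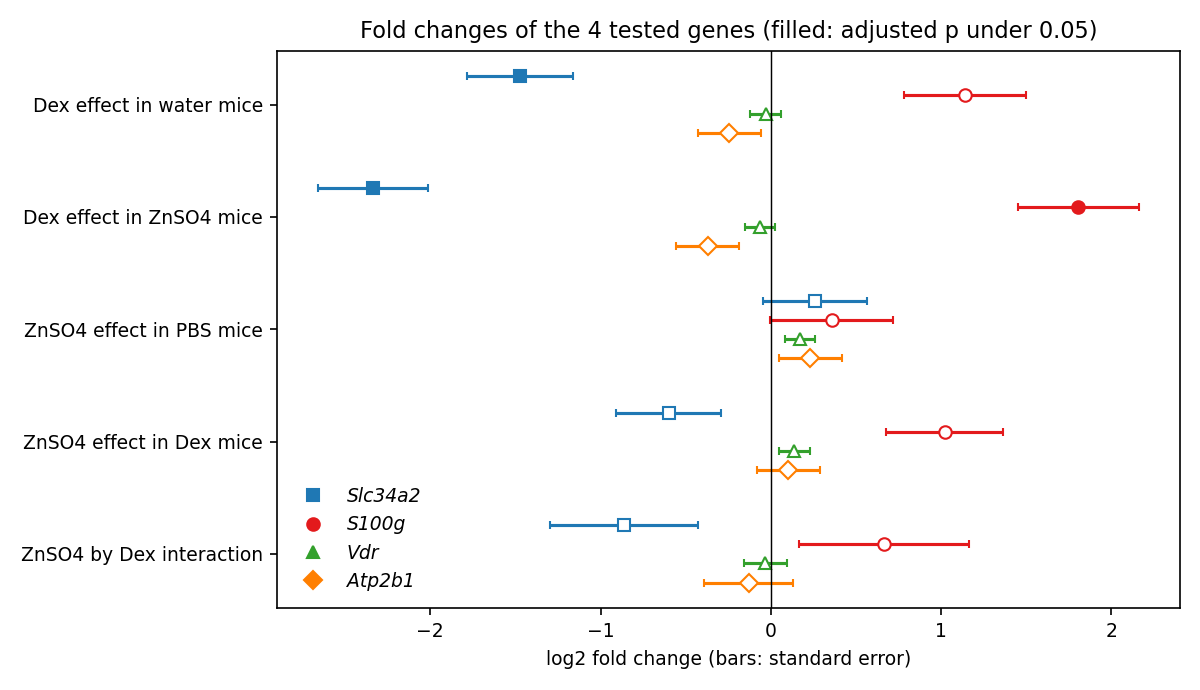
LFC of the 4 tested genes for Dex on water, Dex on ZnSO4, ZnSO4 after PBS, ZnSO4 after Dex and the interaction, with bars of 1 SE and filled symbols for adjusted p under 0.05 by edgeR. Filled symbols are Slc34a2 in both Dex comparisons and S100g for Dex on ZnSO4, and all symbols of Vdr and Atp2b1 are open.

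To see what else of mineral absorption moved, 58 further genes of the calcium, phosphate, magnesium and vitamin D routes were read from the same fit, of which 49 passed the filter. Dex on water called 2 upward and 3 downward, where 5.41% of all genes were called upward and 4.51% downward. The median LFC of these 49 genes was 0.02, beside -0.01 for all genes. Dex on ZnSO4 called 4 upward and 4 downward, beside 6.65% and 7.08% of all genes, with a median of -0.04 beside 0.01. A total of 5 further genes were called in the same direction in both, Cyp27a1 and Fgfr1 upward and Pdzd3, Cldn15 and Cnnm4 downward.

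Cyp27a1, the mitochondrial sterol 27-hydroxylase of bile acid synthesis that also hydroxylates vitamin D, had the largest change among them. Its normalised counts were 164.4, 216.7 and 264.2 in water + PBS, 1377, 1394 and 1761 in water + Dex, 287.6, 308.4 and 239.9 in ZnSO4 + PBS, and 2279, 1774 and 1975 in ZnSO4 + Dex. The groups with and without Dex were far apart, and Cyp27a1 rose 7.02-fold with Dex on water (LFC 2.81, SE 0.177, edgeR adjusted p = 2.5e-06) and 7.21-fold on ZnSO4 (LFC 2.85, SE 0.175, adjusted p = 1.9e-06). Per length it went from 8.7 to 61.11 RPKM on water, close to the level of Vdr.

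Pdzd3, a scaffold protein that binds the calcium channels of this family, fell with Dex 1.67-fold on water (LFC -0.74, edgeR adjusted p = 0.0011) and 2.06-fold on ZnSO4 (LFC -1.04, adjusted p = 7.6e-05). Its normalised counts were 639.1, 650.2 and 694.6 in water + PBS and 412.5, 397.4 and 381.4 in water + Dex. They were 677, 604 and 615 in ZnSO4 + PBS and 314.2, 252.7 and 353.5 in ZnSO4 + Dex, so that the 6 Dex-treated mice lay below all others. Cnnm4, a basolateral magnesium transporter, fell 1.47-fold on water (LFC -0.56, edgeR adjusted p = 0.0061) and 1.64-fold on ZnSO4 (LFC -0.71, adjusted p = 0.00095). Cldn15, a tight junction claudin that forms a cation pore, fell 1.29-fold on water (LFC -0.36, edgeR adjusted p = 0.035) and 1.33-fold on ZnSO4 (LFC -0.42, adjusted p = 0.014), although its call on water was lost in 9 of 22 alternative fits. Fgfr1, a receptor of fibroblast growth factors that with klotho binds the phosphate hormone Fgf23, rose 1.76-fold (LFC 0.81, edgeR adjusted p = 0.009) and 1.73-fold (LFC 0.79, adjusted p = 0.0076).

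**Figure D4:**
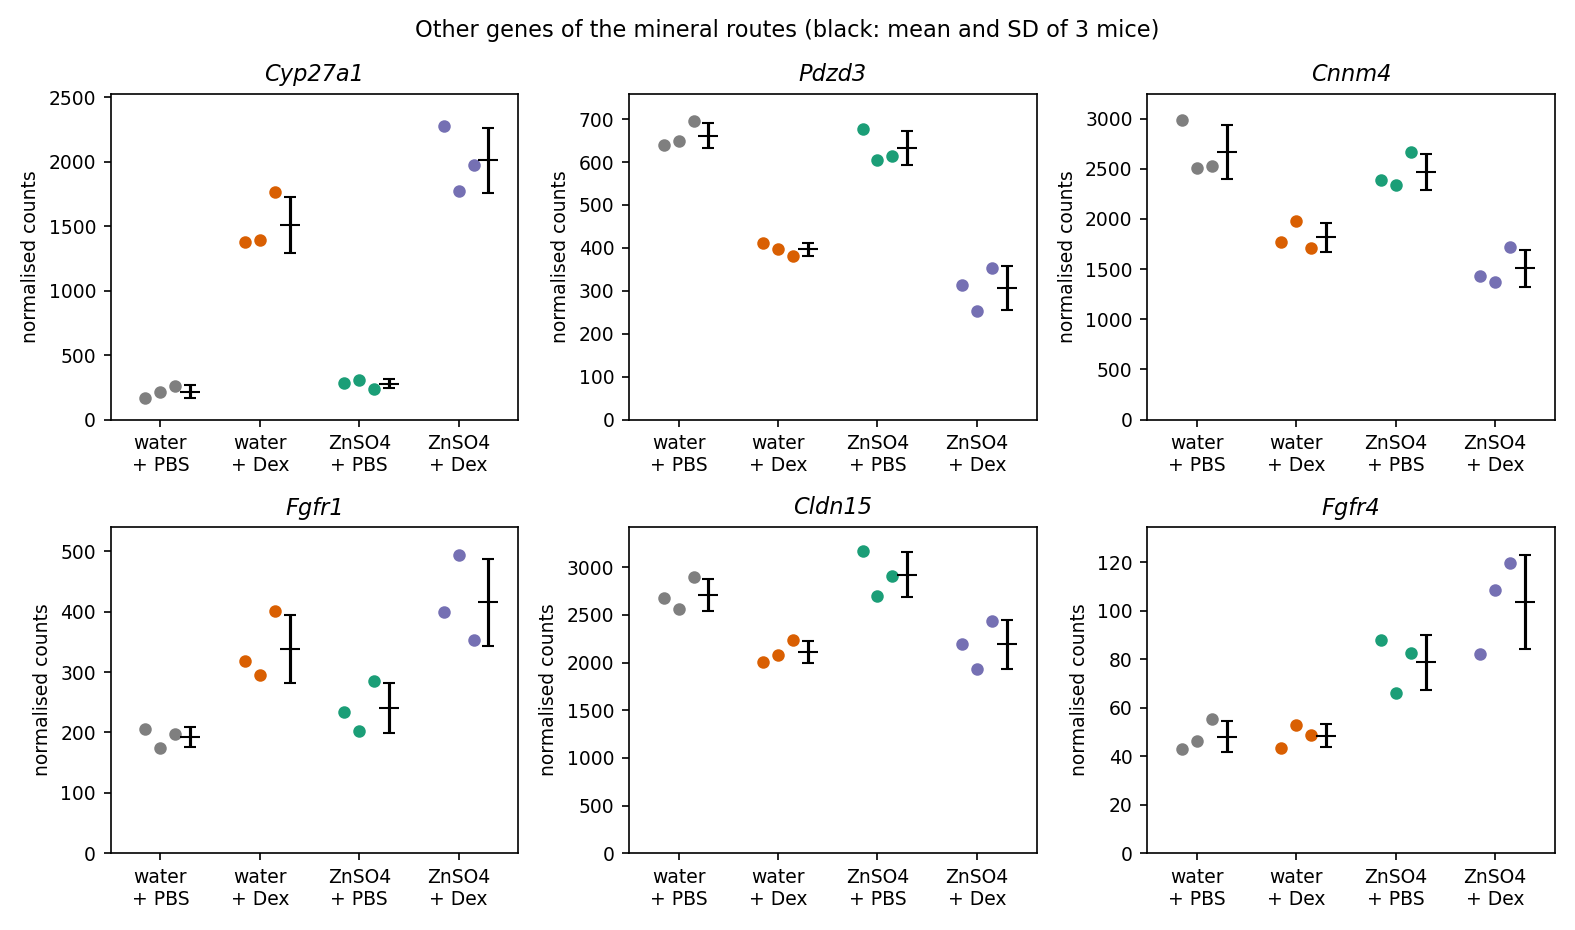
Normalised counts per mouse (coloured points) with the mean and SD of 3 mice (black) for 6 further genes of the mineral routes, on axes that start at 0. Cyp27a1 and Fgfr1 are higher and Pdzd3, Cnnm4 and Cldn15 lower in the Dex groups, and Fgfr4 is higher in the ZnSO4 groups.

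On ZnSO4, Dex called 3 genes more. Enpp1, which makes pyrophosphate outside the cell, rose 1.53-fold (LFC 0.61, edgeR adjusted p = 0.016). Slc30a10, a manganese exporter known as a vitamin D target in the gut, rose 2.63-fold (LFC 1.40, edgeR adjusted p = 0.029), but its groups overlapped, since ZnSO4 + Dex replicate 2 had 370.8 normalised counts and ZnSO4 + PBS replicate 1 had 398.8. Ncor1, a corepressor of nuclear receptors, fell 1.23-fold (LFC -0.29, edgeR adjusted p = 0.043) and lost its call in 15 of 22 alternative fits.

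ZnSO4 after PBS called 2 of the 49 genes, a share close to the 4.66% of all genes. After PBS, 1 rose and 1 fell of the 49, beside 2.11% and 2.54% of all genes, with a median LFC of 0.13 against -0.01 for all genes. Fgfr4, another fibroblast growth factor receptor, rose 1.64-fold (LFC 0.71, edgeR adjusted p = 0.049), and Pdia3, a protein disulfide isomerase of the endoplasmic reticulum also described as a membrane binding protein of vitamin D, fell 1.31-fold (LFC -0.39, adjusted p = 0.046). These calls were lost in 16 and 17 of 22 alternative fits. After Dex, ZnSO4 called 1 gene upward, beside 1.83% of all genes, and none downward, beside 2.54%. This gene was again Fgfr4, which rose 2.13-fold (LFC 1.09, edgeR adjusted p = 0.007), and its call was kept in all 22 alternatives. The normalised counts of Fgfr4 were 42.8 to 55.11 in the 6 mice on water and 65.89 to 119.6 in the 6 mice on ZnSO4.

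Against the control, ZnSO4 + Dex called 18 of the 49, with 9 upward and 9 downward, beside 11.5% and 11.9% of all genes. Cyp27a1 (9.33-fold higher), Fgfr1 (2.16-fold) and Fgfr4 (2.15-fold) rose, and Pdzd3 (2.16-fold lower), Cnnm4 (1.77-fold) and Cldn15 (1.24-fold) fell. The nuclear receptor coactivators Ncoa1 and Ncoa3 fell 1.20-fold (edgeR adjusted p = 0.021) and 1.43-fold (adjusted p = 0.018). The scaffold Slc9a3r1, which anchors transporters at the brush border, fell 1.59-fold (adjusted p = 0.036), its relative Slc9a3r2 rose 1.33-fold (adjusted p = 0.022), and Rab11a, of the recycling endosome, fell 1.30-fold (adjusted p = 0.018). Normalised counts of Slc9a3r1 were 8953, 10830 and 9908 in the control and 6326, 3942 and 8388 in ZnSO4 + Dex. Its lowest value came from replicate 2, the library low in enterocyte markers. Enpp1 rose 1.37-fold (adjusted p = 0.042), Pdia3 fell 1.22-fold (adjusted p = 0.048) and Slc37a2, a sugar phosphate transporter, fell 1.90-fold (adjusted p = 0.039). Outside Cyp27a1, the largest folds of this list came from genes with few reads or a wide spread.

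Kl, the klotho coreceptor, rose 5.87-fold (edgeR adjusted p = 0.0014) from 1.003 to 2.918 normalised counts in water + PBS to 12.44 to 14.95 in ZnSO4 + Dex. Akp3, an intestinal alkaline phosphatase whose sequence resembles that of Alpi, rose (LFC 2.14, adjusted p = 0.024) from 1.946 to 3.801 to between 11.53 and 14.52 normalised counts. Akp3 had 18.86, 12.81 and 2.779 in ZnSO4 + PBS and 2.23, 2.16 and 4.322 in water + Dex, so its rise was not particular to the combination. Cyp3a11, a drug and steroid hydroxylase from a family of near-identical genes, rose 9.11-fold (edgeR adjusted p = 0.013), but its normalised counts ran from 1036 to 7127 within ZnSO4 + Dex and from 468.7 to 3696 within ZnSO4 + PBS. Reads that mapped to several places were left out of the counts per the study's methods, so reads shared between such copies are missing and the values of Akp3 and Cyp3a11 are uncertain.

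Markers of cell types also moved in ZnSO4 + Dex against the control, where 11.5% of all genes were called upward and 11.9% downward. Of the 7 markers of proximal enterocytes, Gata4 and Slc40a1 fell, 2 others (Fabp1 and Cybrd1) had a positive LFC, and the median LFC was -1.67. Gata4 had only 3, 2 and 2 reads in the libraries of ZnSO4 + Dex. The sums of the 7 overlapped, at 366 to 571 CPM in the control and 136 to 379 CPM in ZnSO4 + Dex. The lowest was replicate 2, the library low in enterocyte markers. Of the 4 markers of distal enterocytes, Slc10a2 rose, and the sums overlapped at 7030 to 8340 and 5580 to 9000 CPM. T cell markers fell in 4 of 5, with sums of 63.1 to 104 and 32.6 to 37.7 CPM, and goblet markers rose in 3 of 5, with sums of 12000 to 12100 and 15500 to 18200 CPM. Of the remaining lists, Chga of enteroendocrine cells and Myh11 of smooth muscle rose and Kdr of endothelium fell. A positive LFC was found for 3 of 3 enteroendocrine, 6 of 6 smooth muscle and 1 of 3 endothelial markers. For ZnSO4 after Dex, T cell markers fell in 3 of 5, beside 2.54% of all genes called downward. Slc40a1 also fell in both Dex and both ZnSO4 comparisons. With Dex, Slc10a2 and Chga rose and Kdr fell on water and on ZnSO4, while Ascl2 fell on water and Lgr5 on ZnSO4. With ZnSO4, Muc2 rose after PBS and after Dex, and Lgr5 rose and Cd8a fell after PBS. The 4 stem markers, among them Lgr5 and Ascl2, did not move together. A positive LFC was found for 2 of them with ZnSO4 after PBS, 1 with Dex on water and 2 with Dex on ZnSO4. Their sums overlapped at 687 to 934 CPM in water + PBS and 752 to 865 CPM in ZnSO4 + PBS. The part of these cell types in the differences above was not tested.

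Across the 12 libraries, the profiles of Slc34a2 and S100g ran opposite to each other, with a Pearson correlation of log2 CPM of -0.85, and those of Slc34a2 and Atp2b1 ran alike at 0.767. Both values describe libraries of 4 groups, so they include the differences between groups given above. Among 14970 genes, the profiles most like that of Slc34a2 were Tnfrsf11a (r = 0.986), the receptor of the cytokine Rankl, Plekhg6 (0.983) and Plec (0.983), which encodes the cytoskeletal linker plectin. Most like S100g were Ubr2 (0.969), Spire1 (0.944) and Art3 (0.937). Most like Atp2b1 were Ralb (0.951), Perp (0.939) and Slc26a6 (0.924), an anion exchanger of the brush border. The closest to Vdr were Cyp2j6 (0.957), Aldh3a2 (0.902) and Lclat1 (0.896).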

How the data were processed

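The authors prepared stranded TruSeq libraries from ileum RNA, sequenced single reads, and deposited raw counts per gene, obtained with featureCounts after alignment by HISAT2 2.0.4 (mm10). The strand setting and annotation release are not given in the sources used here. Sample columns were matched to the labels by group and replicate, reading the column letter H as normal water. Symbols and positions came from GENCODE M21 (GRCm38), which held 54809 of 54838 identifiers, and promoters from RefSeq.

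Counts were analysed with edgeR 4.0.16 in R 4.3.3. Genes were kept by filterByExpr (minimum count 10, 15938 genes with 99.8% of the reads), scaled by TMM and fitted with 4 group means (quasi-likelihood test, Benjamini-Hochberg adjustment, adjusted p under 0.05). Normalised counts refer to the mean effective library size of 11377723. A single value compared between 3 and 3 mice could not reach a permutation p below 0.1, so only the fit across all genes was used. The floor of 3 counts covers counting error only, whereas the SE come from the quasi-likelihood fit and include the spread between mice. On simulated counts for Dex on water (15938 genes), 88% of 100 genes changed 4-fold and 65% of 100 changed 2-fold were recovered. Replicates of a group differed by more than sampling noise (chi-square over degrees of freedom 8.3 to 45.3).

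The genes and lists were chosen with earlier results of these data known. Of the wider list, genes called in at least 1 of 5 comparisons were named; relatives shown for their level, whatever their test, are named besides, and 1 called gene is not reported here. The 3 most alike genes had the highest correlation among tested genes with a mean of at least 1 CPM. DESeq2 1.42.0, other scalings, filters, covariates, a replicate block and leaving out each library served as alternatives, and the enterocyte covariate was added after seeing the data.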

Additional observations from a re-analysis of the deposited data

How the results depend on the processing

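Of 528 alternative LFC of the 4 tested genes over 6 comparisons, 509 kept sign and call, 2 lost and 12 gained a call, and 5 turned sign, none of them a called value. Dex on water called 2 of the 4 genes instead of 1 with DESeq2, with a filter of at least 1 count and with only the groups compared, and 0 to 2 when single libraries were left out. ZnSO4 after Dex called 1 instead of 0 with DESeq2, and 0 to 2 without single libraries. Dex alone against ZnSO4 alone called 2 instead of 1 with only the groups compared and with the enterocyte covariate, and 1 to 2 without single libraries. The causes were not tested.

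Of the wider list, Dex on water called 8 instead of 5 with only the groups compared, 2 at an LFC above 0.8 in size, and 4 to 8 without single libraries. ZnSO4 after PBS called 1 instead of 2 with RLE or upper-quartile factors, at least 1 count, the B cell or enterocyte covariate or only the groups compared, 0 at the fold threshold, and 0 to 3 without single libraries. Dex on ZnSO4 called 5 instead of 8 with only the groups compared, 3 at the fold threshold, and 4 to 9 without single libraries. ZnSO4 after Dex called 3 instead of 1 with DESeq2, 2 with the B cell, smooth muscle or enterocyte covariate or only the groups compared, and 1 to 3 without single libraries. ZnSO4 + Dex against the control called 9 instead of 18 with the smooth muscle covariate, 11 with only the groups compared, 9 at the fold threshold, and 7 to 18 without single libraries. Dex alone against ZnSO4 alone called 2 instead of 9 at the fold threshold, and 4 to 12 without single libraries.

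The LFC that turned sign ranged from -0.17 to 0.20. With the enterocyte covariate they were Slc34a2 for ZnSO4 after PBS (-0.037) and the interactions of Vdr (0.030) and Atp2b1 (0.20), and with the smooth muscle covariate Atp2b1 against the control (0.036). Without single libraries, Vdr ranged from -0.078 to 0.043 for Dex on water, and Atp2b1 from -0.17 to 0.32 for ZnSO4 after Dex and from -0.41 to 0.076 against the control. The interactions then ranged from -0.12 to 0.023 for Vdr and from -0.40 to 0.087 for Atp2b1.

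Equal replicate numbers showed no shared signal. The 18 pairs of same-numbered libraries correlated at a median of -0.06 in their deviations from the group means (-0.36 to 0.46). Pairs of different numbers had a median of 0.02, and 4 libraries correlated best with their own number. Such correlations cannot show whether mice shared a cage or a day. With the replicate number as a block, ZnSO4 after PBS called 0 of the wider list, and no call of the 4 genes changed.

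Over all genes, the fold threshold left 705 calls of 1582 for Dex on water, 271 of 742 for ZnSO4 after PBS, 926 of 2189 for Dex on ZnSO4, 303 of 696 for ZnSO4 after Dex, 1540 of 3719 against the control and 1166 of 2807 for Dex alone against ZnSO4 alone. The smooth muscle covariate left 410 for ZnSO4 after PBS, 318 for ZnSO4 after Dex and 2106 against the control. With only the groups compared, 411 were called for ZnSO4 after PBS and 1417 for Dex on ZnSO4. Without single libraries, calls fell as low as 936 (water + Dex replicate 3) for Dex on water, 283 (ZnSO4 + PBS replicate 3) for ZnSO4 after PBS, 322 (water + Dex replicate 2) for ZnSO4 after Dex and 1840 (water + Dex replicate 3) for Dex alone against ZnSO4 alone. No scaling moved the median LFC of all genes by more than 0.0444. Depth limits Trpv6, Cyp24a1 and Cyp27b1, whose counts allow no comparison.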
